A study of Mus musculus with 9 samples.

Results

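The sphingolipid and ceramide synthesis genes Sptlc1, Sptlc2, Sptlc3, Degs1, Degs2, Elovl4, Fa2h, Ugcg, Sgms1 and Sgms2 were followed in mouse hair follicle stem cells at 3 ages. They are 10 of the 37980 rows of the deposited table, each found by its gene symbol, and all 10 are protein-coding. The set was chosen by function with earlier results of these data in view, among them a lower Fa2h at 24 than at 3 months, so the values below describe the genes and are not independent evidence for them. The cells came from male C57BL/6J mice of 3, 19 and 24 months, with 3 libraries per age, and no allele or agent is named for any group. They were sorted as CD49f-high, CD34-positive cells from skin of the back and the belly, a surface phenotype of the follicle bulge. The labels name no animals, so p-values measure the spread between libraries, and part of that spread may be technical. The study asks how RNA levels in these cells differ with age.

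Sphingolipids are built on a sphingoid base that serine palmitoyltransferase makes from serine and a fatty acyl-CoA. The base is joined to a fatty acid and desaturated or hydroxylated to give ceramide, which then receives a phosphocholine or sugar head group to become sphingomyelin or glucosylceramide. In skin, ceramides with very long and hydroxylated chains form much of the lipid of the cornified layer, while hydroxylated sphingolipids are also made in sebaceous glands and in myelin.

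FPKM gives the sequenced fragments of a gene, scaled by the gene's length and by the library's total. It is meant for comparison between genes and between libraries, but its sum over protein-coding rows differed between libraries. Fa2h was listed between 1.94 and 2.51 FPKM at 3 months and at or below 0.582 FPKM in all 6 older libraries. Elovl4 fell from 26.9 ± 1.16 FPKM at 3 months to 15.7 ± 2.67 FPKM at 19 months (SD, n = 3 each). The enzymes that begin the pathway and those that add head groups did not pass the test at any comparison of ages.

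The libraries showed the sorted population. Cd34, Itga6 (which encodes CD49f) and the basal keratin Krt14 averaged at least 472, 84.5 and 3805 FPKM at every age. Krt15 was listed at 0 in all 9 libraries, and Krt5 at 0 in the 19-month libraries but at 2160 to 7576 FPKM in the others, so a 0 in this table is reported only as listed. The number of reads behind a value is unknown, and FPKM summed to between 553388 and 738569 over protein-coding rows. The labels give the 3-month libraries a separate, lower block of running numbers, so a difference between those library sets cannot be told apart from age. In these bulk libraries, fewer cells of a type and less RNA per cell cannot be told apart either.

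The test was limma on log2(FPKM + 1) over 11509 protein-coding genes that reached 1 FPKM in 3 or more libraries, two-sided, with Benjamini-Hochberg adjustment over all of them and a threshold of 0.05. A log2 change on this scale understates the change of genes near 1 FPKM, and its error is limma's standard error. Fa2h passed that filter only through its 3-month libraries and was already known to be lower at 24 months. It is therefore described without a test and left out of the counts, which are over the other 9 genes.

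At 19 against 3 months, 1 of the 9 genes was called, Elovl4, against 180 of all 11509 genes (1.56%). At 24 against 3 months none of the 9 was called, against 442 (3.84%), and at 24 against 19 months again none, against 107 (0.93%). At an unadjusted p under 0.05 limma gave 3, 2 and 1 of the 9, against 15.7%, 21.6% and 12.8% of all genes fitted. In a fit on all 14275 rows of any gene type, none of the 9 was called at any comparison, where 0.28%, 0.203% and 0.049% of all rows were. Since the genes were picked with results known, nothing is read from these counts. Median log2 changes over the 9 genes were -0.04, 0.13 and 0.23, beside 0.01, -0.0037 and -0.02 over all genes fitted. The comparisons with 3 months share the same 3 libraries, and so do the comparisons that use 19 or 24 months.

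**Figure D1:**
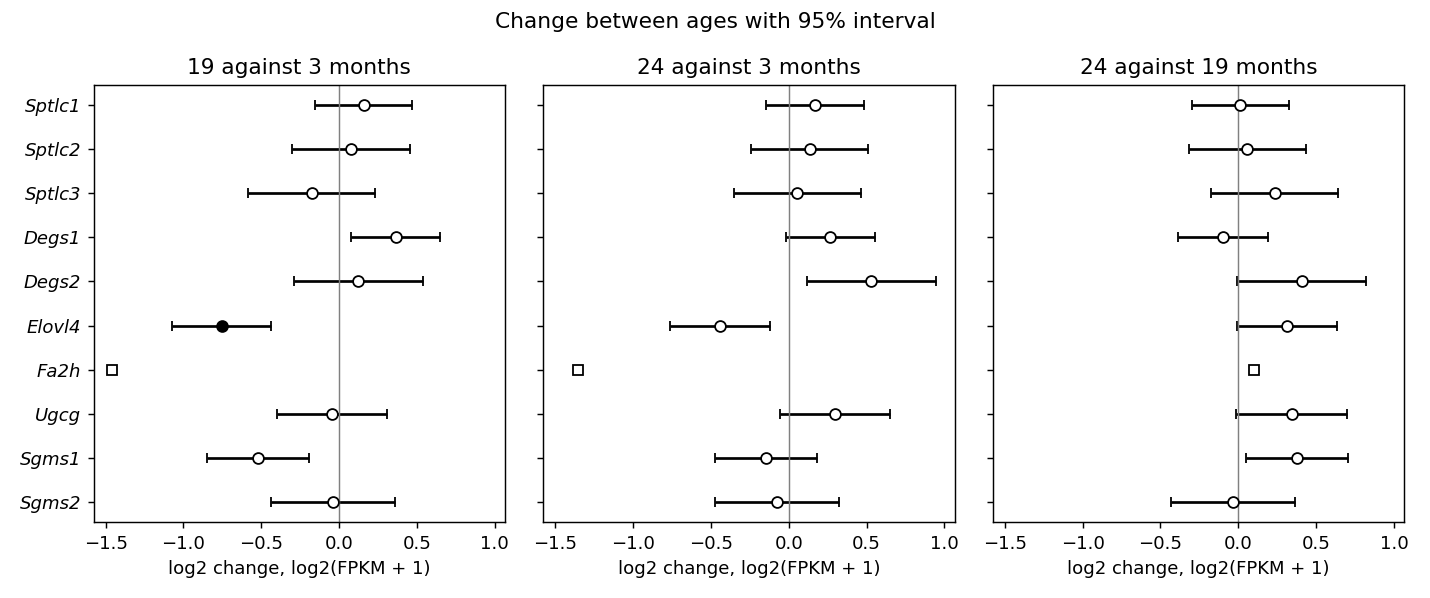
Log2 change of each gene on the log2(FPKM + 1) scale (x axis) at 3 comparisons of ages, with limma's 95% interval except for Fa2h. The filled circle is a change past the threshold (Elovl4 at 19 against 3 months, log2 -0.75), open circles did not pass, and squares mark Fa2h, which is described without a test.

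By level the genes formed 3 tiers. Degs1 stood highest, at 78.4 to 120 FPKM over the 9 libraries, above 92.7% of the genes fitted and clear of every other member. A middle tier ran from Sgms1 through Sptlc1, Elovl4, Sptlc3 and Sptlc2 to Sgms2, and each neighbour in that order overlapped the next over the 9 libraries. Degs2, Ugcg and Fa2h formed the low tier, with no library above 3.64 FPKM, below the lowest library of Sgms2 at 9.64 FPKM. Within the low tier the ranges of neighbours overlapped.

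**Figure D2:**
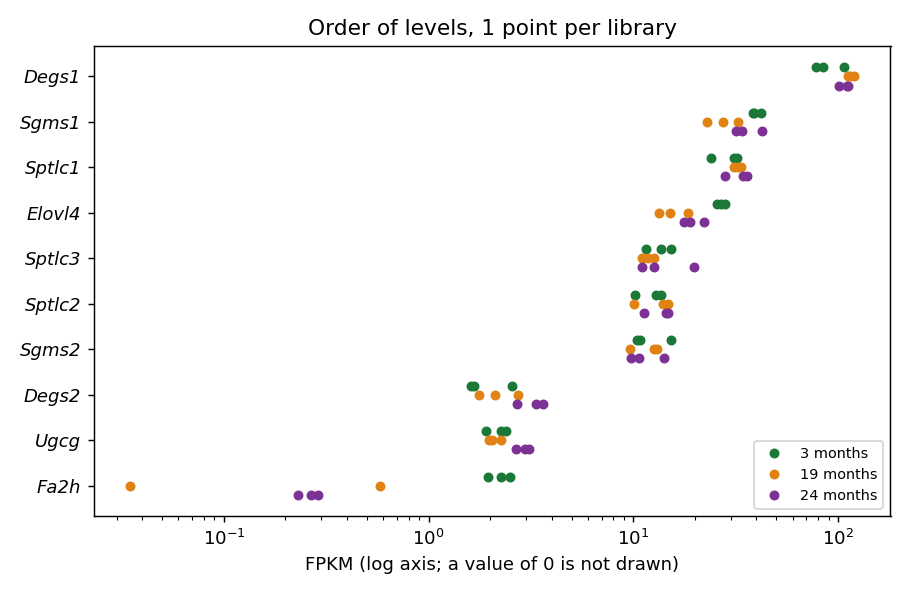
FPKM of each gene in each of the 9 libraries (x axis, log scale), ordered by the mean over libraries and coloured by age. Degs1 stands apart at the top, and Fa2h spans the widest range, with 1 value of 0 at 19 months that a log axis cannot show.

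The bases just upstream of 3 genes are shown for 2 reasons. Elovl4 is the gene called with age, and Sptlc2 and Sptlc3 encode alternative subunits of 1 enzyme that reached overlapping levels. The sequences are the 250 bases before each gene's start in RefSeq on GRCm38.p6, a later build than the one named for the deposited table, and were matched by symbol. Each is written 5′ to 3′ on the gene's strand, and capitals mark CCAAT or GGGCGG on either strand. They lie at chr9:83806306-83806555 (minus strand) for Elovl4, chr12:87388356-87388605 (minus strand) for Sptlc2 and chr2:139493663-139493912 (plus strand) for Sptlc3.
Elovl4: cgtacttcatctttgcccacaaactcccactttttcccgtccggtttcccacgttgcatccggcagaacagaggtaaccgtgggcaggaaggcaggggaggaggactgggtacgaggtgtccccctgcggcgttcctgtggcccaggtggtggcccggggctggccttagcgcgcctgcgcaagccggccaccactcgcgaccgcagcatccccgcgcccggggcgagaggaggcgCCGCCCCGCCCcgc
Sptlc2: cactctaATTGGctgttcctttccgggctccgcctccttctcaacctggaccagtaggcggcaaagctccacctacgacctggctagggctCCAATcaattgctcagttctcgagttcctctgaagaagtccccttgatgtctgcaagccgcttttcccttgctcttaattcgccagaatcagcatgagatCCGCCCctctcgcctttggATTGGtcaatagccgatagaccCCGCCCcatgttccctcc
Sptlc3: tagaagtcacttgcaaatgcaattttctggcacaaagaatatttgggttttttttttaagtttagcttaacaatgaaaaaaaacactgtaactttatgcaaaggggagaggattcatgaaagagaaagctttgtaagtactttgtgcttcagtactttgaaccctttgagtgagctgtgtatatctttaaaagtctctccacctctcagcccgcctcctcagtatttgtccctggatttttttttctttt

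The Elovl4 stretch is 69.6% G and C with 25 CpG dinucleotides, and the Sptlc2 stretch is 55.2% with 11. The Sptlc3 stretch is 35.6% G and C with 1 CpG, where the median over all 32851 promoters of the table is 52.4% and 6. The 300-base promoters, which run on to 50 bases past the start, were searched on both strands for TATAAA (present in 13.6% of all promoters of the table), CCAAT (37.4%), GGGCGG (35.7%), CACGTG (7.15%) and TGANTCA (7.81%). Elovl4 holds 2 overlapping GGGCGG close before its start, and CCAAT and CACGTG within the 50 bases after it. Sptlc2 holds 3 CCAAT and 3 GGGCGG over the 300 bases, and Sptlc3 holds none of the 5. A match is a description of letters and not of a factor's binding. Of the 10 genes, 9 had an entry in the promoter table; the other is Fa2h.

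Serine palmitoyltransferase, which makes the sphingoid base, pairs the subunit of Sptlc1 with that of Sptlc2 or Sptlc3. Sptlc1 was listed at 24.1, 31.2 and 32.1 FPKM in the 3-month libraries, at 33.6, 31.1 and 32.5 FPKM at 19 months and at 28.2, 35.9 and 34.3 FPKM at 24 months. Sptlc2, the subunit found in most tissues, was listed at 10.2, 12.9 and 13.6 FPKM, then 10.1, 14.1 and 14.9 FPKM, then 11.3, 14.4 and 14.8 FPKM. Sptlc3, the subunit linked to shorter sphingoid bases, was listed at 11.6, 15.4 and 13.7 FPKM, then 12.6, 11.7 and 11.1 FPKM, then 12.63, 10.9995 and 19.8 FPKM. The ages overlapped for all 3 subunits, and the highest Sptlc3 value came from 24 months replicate 4 alone. No change of a subunit passed limma (smallest adjusted p = 0.538), and the 95% intervals of their 9 log2 changes lay between -0.58 and 0.64.

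Per length of transcript, Sptlc3 made up 52.6 ± 2.14% of the sum of Sptlc2 and Sptlc3 at 3 months, 47.9 ± 6.73% at 19 months and 51.1 ± 7.11% at 24 months (SD, n = 3 each). Single libraries ranged from 42.7% to 57.3%, and the ages overlapped. The 2 subunit transcripts were thus near equal in these cells at each age.

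Dihydroceramide desaturases finish ceramide. Degs1 adds the double bond of the sphingoid base, and Degs2 can also hydroxylate it to give the phytoceramides of epidermis and gut. Degs1 was listed at 78.4, 107 and 84.9 FPKM at 3 months, at 111.89, 120 and 114 FPKM at 19 months and at 111.76, 101 and 110 FPKM at 24 months. All 19-month libraries lay above the 3-month ones and above those of 24 months as well, while 24 and 3 months overlapped. The log2 change at 19 against 3 months was 0.37 ± 0.13 and did not pass (limma adjusted p = 0.198).

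Degs2 was listed at 1.61, 1.67 and 2.57 FPKM at 3 months, at 2.73, 1.76 and 2.12 FPKM at 19 months and at 3.37, 2.70 and 3.64 FPKM at 24 months. The 24-month libraries were all above the 3-month ones, and 19 months overlapped both. The log2 change at 24 against 3 months was 0.53 ± 0.19 (95% interval 0.12 to 0.95) and did not pass limma (adjusted p = 0.131). Degs2 made up 1.45% to 3.19% of the sum of both desaturases over the 9 libraries. In GENCODE M21, 278 of its 2583 exonic bases are shared with the oppositely directed gene Evl, and no source used here says whether strand was used, so reads of the 2 genes may be mixed in its value.

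**Figure D3:**
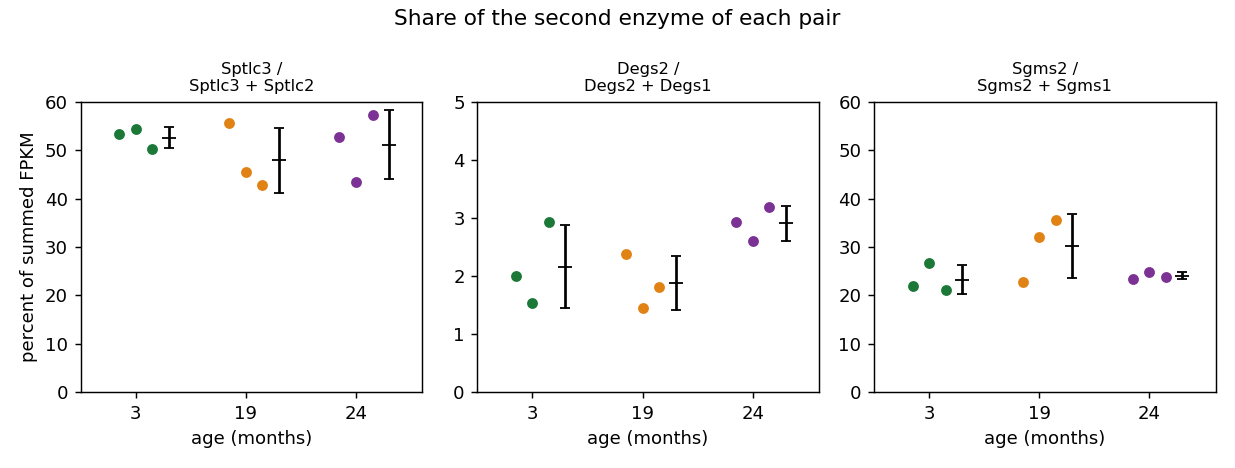
Share of Sptlc3, Degs2 and Sgms2 in the summed FPKM of their pair (y axis, percent) by age (x axis, months), 1 point per library, with bars for mean ± SD. Sptlc3 stays near 50%, Degs2 under 5%, and Sgms2 reaches 35.6% in 1 library of 19 months.

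Elovl4 lengthens very long chain fatty acids, including those of the acylceramides that seal the epidermal barrier. It was listed at 26.97, 28.1 and 25.7 FPKM at 3 months, at 15.2, 18.6 and 13.3 FPKM at 19 months and at 19.0, 17.6 and 22.2 FPKM at 24 months. Every 3-month library lay above every older one, and the older ages overlapped. At 19 months it fell by 0.75 ± 0.15 on the log2 scale (limma adjusted p = 0.0189), with a 3-month mean 1.72 times that of 19 months in FPKM. At 24 months its log2 change from 3 months was -0.44 ± 0.15 (adjusted p = 0.107), and from 19 months 0.31 ± 0.15 (adjusted p = 0.41).

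The call of Elovl4 at 19 months was kept in 6 of 9 fits that left out 1 library. It was lost without 3 months replicate 1 (adjusted p = 0.0765), 3 months replicate 2 (0.0709) or 19 months replicate 3 (0.118), and in the fit on all rows (0.112).

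Fa2h places a hydroxyl group on the fatty acid before it enters ceramide, and is known from myelin, epidermis and sebaceous gland. It was listed at 2.51, 2.27 and 1.94 FPKM in the 3-month libraries. At 19 months it was listed at 0, 0.0348 and 0.582 FPKM, and at 24 months at 0.267, 0.232 and 0.289 FPKM. The ages of 3 and 24 months were far apart, with the 3-month mean 8.53 times that of 24 months. On the log2(FPKM + 1) scale its difference from 3 months was -1.46 at 19 and -1.36 at 24 months, and with 0.1 in place of 1 it was -3.48 and -2.69. The values of 24 months lay within the range of those of 19 months.

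**Figure D4:**
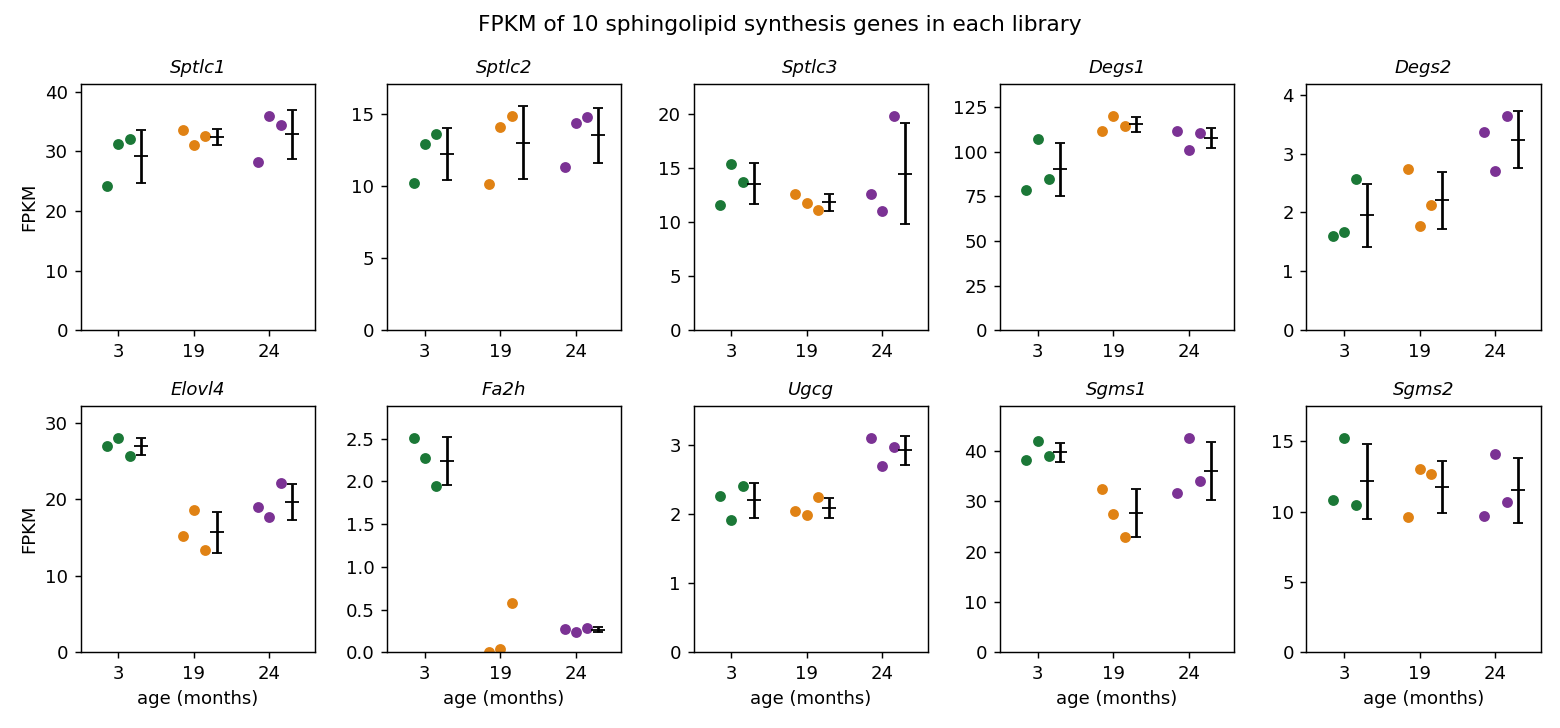
FPKM (y axis, from 0) of the 10 genes by age (x axis, months), 1 point per library, with bars for mean ± SD except where a library is listed at 0. Fa2h at 3 months and Elovl4 at 3 months lie above all older libraries of the same gene, and the panels of the Sptlc genes overlap at all ages.

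The 3 genes whose log2(FPKM + 1) followed Fa2h most closely over the 9 libraries were Far2, Cidea and Abi3bp (Pearson r = 0.98, 0.96 and 0.96). Far2 makes fatty alcohols for wax, Cidea is a lipid droplet protein, and Abi3bp is a matrix protein. These r describe 9 libraries that fall into a 3-month set and an older set, and the genes were picked for them. The highest Fa2h of the older libraries, in 19 months replicate 3, stood beside the highest older values of Far2 (2.44 FPKM), Cidea (2.32 FPKM) and Abi3bp (8.26 FPKM). Those libraries were part of the choice of the genes, so this is not separate support. Within the 3-month libraries Fa2h fell in replicate order, as Cidea did (8.11, 7.55 and 5.55 FPKM). Far2 (6.42, 7.93 and 8.69 FPKM) and Abi3bp (11.9, 13.4 and 15.1 FPKM) rose in that order.

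Fa2h is also made in the sebaceous gland, and 16 markers of that gland were listed. Of these 14 were fitted, and 8 were called lower and none higher at 19 against 3 months, with a median log2 change of -1.03. Far2, Cidea, Elovl3, Krt79, Mc5r, Scd1, Scd3 and Soat1 were the 8. Of these, Mc5r, Scd3 and Soat1 reached 1 FPKM only in the 3-month libraries. They passed the filter only through the age where they are high, as Fa2h did. The counts at both older ages include them, but their calls only describe them. At 24 against 3 months 8 were called lower, with Fasn in place of Krt79, and Mgst1 was called higher (median -1.02). Over all genes fitted, 1.56% and 3.84% were called at 19 and at 24 against 3 months, with median log2 changes of 0.01 and -0.0037. Against 3 months, the log2 change was above 0 for 3 of the 14 at 19 months and for 2 at 24 months. Dgat2, not called, was listed at 18.3 to 22.8 FPKM at 3 months and at 20.6 to 31.0 FPKM in the older libraries. At 24 against 19 months 1 was called, Plin2, which was lower (adjusted p = 0.0457). Plin2 was listed at 63.4 to 84.9 FPKM at 3 months, 89.7 to 116 FPKM at 19 months and 51.1 to 71.7 FPKM at 24 months. In fits that left out 1 library, that call was kept in 3 of 9 (up to 0.239) and needed replicates 2 and 3 of 3 months, 2 and 3 of 19 months and 3 and 4 of 24 months. Cidea stood at 8.11, 7.55 and 5.55 FPKM at 3 months and at 0.24 to 2.32 FPKM in the older libraries. Scd1, a fatty acid desaturase, stood at 38.1, 48.8 and 38.6 FPKM and at 17.4 to 20.4 FPKM in the older libraries. The calls of Far2, Cidea, Scd1 and Soat1 at both ages, of Mc5r and Scd3 at 19 months and of Fasn at 24 months were kept whichever library was left out. Krt79 at 19 months lost its call for replicate 2 of 3 months (adjusted p = 0.0623), and Mgst1 at 24 months for replicate 4 of that age (0.0641). At 24 months Scd3 lost it for replicate 2 of 3 or of 24 months (up to 0.0844), and Mc5r for replicates 1 and 2 of 3 months and 4 of 24 months (up to 0.0897). In the fit on all rows, Far2, Mc5r and Scd1 were called at 19 months and Scd1 alone at 24 months.

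The summed FPKM of the whole sebaceous list, which Mgst1 dominates, was 474 to 558 at 3 months, 455 to 497 at 19 months and 542 to 623 at 24 months, and no listed marker was at 0 in every library. Mgst1, the most abundant of them, averaged 211, 233 and 366 FPKM at the 3 ages. The part of sebaceous cells in the Fa2h values was not tested.

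**Figure D5:**
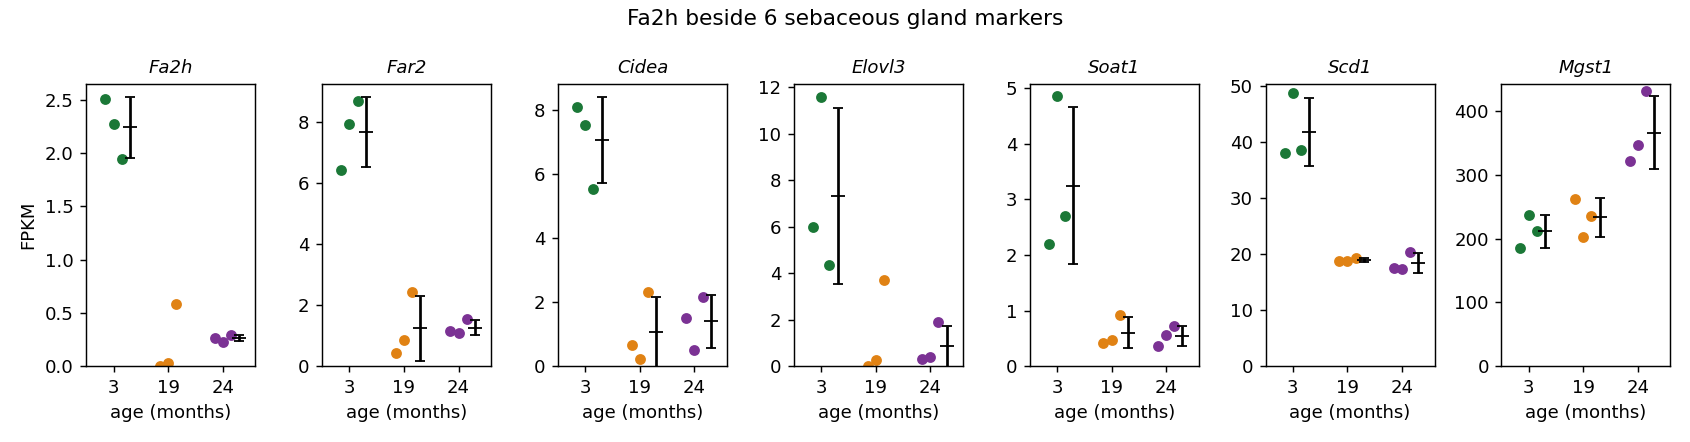
FPKM (y axis, from 0) of Fa2h and 6 sebaceous gland markers by age (x axis, months), 1 point per library, with bars for mean ± SD except where a library is listed at 0 (the 24-month bar of Elovl3 ends at the axis). Far2, Cidea, Soat1 and Scd1 are higher in every 3-month library than in any older one, as Fa2h is, Elovl3 reaches 3.73 FPKM in 1 library of 19 months, and Mgst1 is highest at 24 months.

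Of 7 Schwann cell and myelin markers, Mag was at 0 in every library, and Pmp22, a myelin protein also made in other cells, was the 1 called gene. Pmp22 rose at 19 and at 24 months (limma adjusted p = 0.0433 and 0.0361), opposite to Fa2h, with calls lost in 7 and 5 of 9 fits that left out 1 library (up to 0.177 and 0.102). Replicates 1 and 3 of 3 months and every library of the older age compared decided them, and at 19 months replicates 3 and 4 of 24 months as well. The summed list was 41.4 to 58.2 FPKM at 3 months and 64.2 to 76.5 FPKM in the older libraries. Most of that sum was Pmp22, at 31.2 to 50.1 FPKM at 3 months and 55.5 to 69.1 FPKM in the older libraries. Over the 4 fitted markers the median log2 change was 0.04 at 19 and 0.09 at 24 against 3 months.

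Differentiated keratinocytes express Elovl4 and Degs2. Of 12 fitted markers of these cells, none was called at 19 against 3 months, with a median log2 change of 0.44. The change was above 0 for 9 of them and below 0 for Krt1, Krt10 and Sprr1a (-0.80, -0.30 and -0.04). Krt1 came nearest to the threshold of these (limma adjusted p = 0.0935). It averaged 28.5, 16.4 and 22.3 FPKM at 3, 19 and 24 months, so the markers did not all rise. At 24 against 3 months Cdsn, a protein of corneodesmosomes, rose from 13.8 to 28.2 FPKM (limma adjusted p = 0.0231), a call kept in 5 of 9 fits that left out 1 library and lost (up to 0.109) for replicates 1 and 2 of 3 months and 2 and 4 of 24 months. The summed list was 5318 to 5673 FPKM at 3 months, 6883 to 8742 at 19 months and 6018 to 8505 at 24 months, led by Dmkn. The part of such cells in the Elovl4 and Degs2 values was not tested.

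Among the other marker lists, the lower ones at older ages were Tyrp1 of melanocytes at both older ages, Egfl7 and Ramp2 of the endothelial list at 24 months and the stem cell receptor Lgr5 at 24 months. Of 6 endothelial markers, Egfl7 and Ramp2 were the only 2 fitted. Cdh5, Kdr, Pecam1 and Tie1 stayed below 1 FPKM in every library. Tie1 did not fall, at 0.405 to 0.557 FPKM at 3 months and 0.414 to 0.789 FPKM at 24 months. Sox9 and Nfatc1 were called higher at 19 months, each in 5 of 9 fits that left out 1 library, with losses for replicates 1 and 2 of 3 months and 2 and 3 of 19 months (adjusted p up to 0.15 and 0.128). Fcer1g of immune cells was lower at 19 than at 3 months and higher at 24 than at 19 months. Its first call was kept in 4 of 9 such fits (up to 0.123) and lost for replicates 1 and 2 of 3 months and for each of 19 months. Both calls of Tyrp1 were kept in 6 of 9 and lost for replicates 2 and 3 of 3 months, with replicate 2 of 19 months or 4 of 24 months (up to 0.073 and 0.0719). Tyrp1 reached 1 FPKM only in the 3-month libraries. It passed the filter only through the age where it is high, as Fa2h did, so its calls only describe it. The call of Egfl7 was kept in 5 of 9 and lost for replicates 1 and 2 of 3 months and 3 and 4 of 24 months (up to 0.0993). Ramp2, Lgr5 and the second call of Fcer1g were kept in all 9. In the fit on all rows, Ramp2 was the 1 gene of this paragraph that was called. No fibroblast or adipocyte marker was called, and of the adipocyte markers Cfd was at 0 in every library. The most abundant marker of each list stood at 33.6, 32.1 and 30.4 FPKM at 3, 19 and 24 months for Cd74 (immune cells), 6.66, 4.597 and 3.67 FPKM for Dct (melanocytes) and 8.15, 5.55 and 3.99 FPKM for Ramp2. For Col1a2 (fibroblasts) it stood at 5.80, 10.04 and 8.98 FPKM, and for Lpl (adipocytes) at 2.07, 1.80 and 1.96 FPKM.

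Ugcg glucosylates ceramide, the first step to glucosylceramides and gangliosides. It was listed at 2.26, 1.91 and 2.40 FPKM at 3 months, at 2.03, 1.98 and 2.25 FPKM at 19 months and at 3.10, 2.69 and 2.96 FPKM at 24 months. All 24-month libraries lay above the other 6. The log2 differences of 24 months were 0.30 ± 0.17 from 3 months and 0.34 ± 0.17 from 19 months, and neither passed limma (adjusted p = 0.317 and 0.413). On the FPKM scale the 24-month mean was 1.33 times that of 3 months.

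Sphingomyelin is made in the Golgi by the enzyme of Sgms1 and at the plasma membrane by that of Sgms2. Sgms1 was listed at 38.3, 41.9 and 39.1 FPKM at 3 months, at 32.5, 27.5 and 22.9 FPKM at 19 months and at 31.7, 42.6 and 34.1 FPKM at 24 months. The 19-month libraries were all below the 3-month ones, and 24 months overlapped both. The log2 change at 19 against 3 months was -0.52 ± 0.15 and did not pass limma (adjusted p = 0.105). Sgms2 was listed at 10.8, 15.3 and 10.5 FPKM, then 9.64, 12.9986 and 12.6 FPKM, then 9.71, 14.1 and 10.7 FPKM. Its ages overlapped, and the 95% intervals of its 3 log2 changes lay between -0.47 and 0.36. Sgms2 made up 23.3 ± 2.98%, 30.2 ± 6.56% and 24.1 ± 0.73% of the sum of both transcripts at 3, 19 and 24 months (SD, n = 3 each).

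The rest of the pathway was described by lists of other genes, given by the symbols in the table. Lass1 to Lass6 are older names of the ceramide synthases Cers1 to Cers6. Of 9 fitted genes that act with the members in making ceramide (Kdsr, the Lass and the Ormdl genes), none was called at any comparison. The one nearest to the threshold at 24 against 3 months was Ormdl3, a brake on serine palmitoyltransferase, at 83.6 and 51.4 FPKM (log2 -0.71, limma adjusted p = 0.0507). The list medians were -0.11, -0.17 and -0.11 at 19 against 3, 24 against 3 and 24 against 19 months.

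None of 7 fitted genes of complex sphingolipid synthesis and transfer, of 21 fitted rows of sphingolipid breakdown or of 9 fitted genes of sphingosine 1-phosphate was called either. At 24 against 3 months their medians were -0.06, -0.0077 and 0.14. The genes with the smallest p there were Gltpd1, a ceramide phosphate carrier, Acer3, a ceramidase, and the receptor gene S1pr2 (adjusted p = 0.604, 0.122 and 0.344). Ugt8a, which makes the galactosylceramide of myelin from ceramides that Fa2h can hydroxylate, averaged no more than 0.00638 FPKM at any age.

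Of 16 fitted genes that supply very long chain fatty acids, 2 were called lower and none higher at 19 against 3 months. Both were elongases, like Elovl4, and 1.56% of all genes fitted were called there. Elongases did not all fall at 19 months. Against 3 months the log2 change was 0.36 for Elovl1, 0.10 for Elovl5 and -0.45 for Elovl6. None of these 3 passed limma (adjusted p = 0.252, 0.792 and 0.254). Elovl3 was listed at 6.013, 11.6 and 4.36 FPKM at 3 months, at 0, 0.264 and 3.73 FPKM at 19 months and at 0.313, 0.386 and 1.89 FPKM at 24 months. It was lower at 19 and at 24 months (log2 -2.10 ± 0.47 and -2.16 ± 0.47, limma adjusted p = 0.0373 and 0.0209), and both calls were lost without 3 months replicate 2 (0.129 and 0.11). Replicate 1 of 3 months and replicates 1 and 2 of 19 months each decided the 19-month call as well, and replicates 2 and 3 of 24 months the 24-month call. Elovl7 fell from 5.70 ± 1.17 to 2.77 ± 0.30 FPKM at 19 months (adjusted p = 0.0397). That call was kept in 3 of 9 fits that left out 1 library, and lost (up to 0.178) when the one left out was replicate 1 or 2 of 3 months, any library of 19 months or replicate 4 of 24 months. Elovl5 and Elovl6 had log2 changes of -0.52 and -0.67 at 24 against 3 months that did not pass (adjusted p = 0.0771 and 0.0557), and Elovl1, the most abundant elongase, had 0.22. The list medians were -0.03 and -0.16 at 19 and at 24 against 3 months. None of the elongase calls was made in the fit on all rows (smallest adjusted p = 0.141).

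Of 10 fitted genes of epidermal acylceramides and the barrier, none was called against 3 months. Aloxe3, a lipoxygenase of acylceramide processing, was higher at 24 than at 19 months, at 13.5 ± 3.397 and 6.32 ± 1.56 FPKM (limma adjusted p = 0.0476), with 11.1 ± 2.84 FPKM at 3 months. The call was kept in 4 of 9 fits that left out 1 library, and lost (up to 0.204) when it was replicate 2 of 3 months, 2 or 3 of 19 months or 3 or 4 of 24 months.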

How the data were processed

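RNA of 9 libraries was measured by sequencing. The deposited table holds FPKM values that the authors made with TopHat and Cuffdiff on build NCBIM37, per the submitters' processing notes (versions and settings: not given in the sources used here). No counts are recoverable, so depth and counting error are unknown. Gene types came from GENCODE M21, which matched 32916 rows by identifier.

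Rows that reached 1 FPKM in 3 or more libraries (14275, of which 11511 protein-coding) were taken to log2(FPKM + 1). Protein-coding rows were kept unless every library of an age was at 0 while every library of another reached 5 FPKM, which left 11509. limma 3.58.1 in R 4.3.3, with a mean-dependent prior variance, fitted all 9 libraries in 1 model, and was tested on simulated data. The members, lists, gene types kept and tests were chosen with earlier results of these data known, among them that the protein-coding fit calls more genes than all rows.

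Named are all members, called genes of the pathway and marker lists, the gene with the smallest p at 24 against 3 months of an uncalled pathway list, and the 3 genes most correlated with Fa2h; other names were chosen after values were seen. Fa2h was left out of counts at every comparison, also chosen after its values were seen. A planned comparison of protein sequences was not made. Alternatives were 10 settings and 9 fits that each left out 1 library. Promoters are from RefSeq, GRCm38.p6.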

Additional observations from a re-analysis of the deposited data

How the results depend on the processing

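The 30 log2 changes (10 genes at 3 comparisons) had 561 values under alternatives, of which 27 had the other sign (sizes up to 0.207, smallest limma adjusted p = 0.595). None of these was a called change, no call was gained, and the call of Elovl4 at 19 against 3 months was kept in 13 of 19 alternatives (adjusted p = 0.0149 to 0.119). The number of genes called at 19 against 3 months, 1 of 9, became 0 on all rows, with or without rows listed at 0, and with no filter on low values, and lay between 0 and 1 when 1 library was left out. Over all genes, the 180, 442 and 107 called became 40, 29 and 7 on all rows, 27, 0 and 0 on all rows without those listed at 0, and 53, 118 and 0 with no filter. At an unadjusted p under 0.05, limma gave 2630 and 1504 where all rows without those at 0 gave none, and 1788 where no filter gave none. Quantile normalisation gave 59 at 24 against 19 months. Leaving out 1 library gave 69 to 230, 136 to 456 and 20 to 216.

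With the replicate number as a block (replicate block), 253, 158 and 110 genes were called over all, and 1, 0 and 0 of the 9 genes. Deviations of same-numbered libraries from their age means correlated at -0.20 to 0.19 over 7 pairs, and those of other numbers at -0.23 to 0.16. The ranges were alike, but with 3 libraries per age they cannot show whether a number marks a shared preparation. Under the block, log2 changes that changed sign were -0.069 for Sptlc2 and -0.21 for Sptlc3 at 24 against 3 months, and -0.074, -0.14 and -0.0296 for Sptlc1, Sptlc2 and Sptlc3 at 24 against 19 months.

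Quantile normalisation gave 0.0075 for Sgms2 and 0.0149 for Ugcg at 19 against 3 months. When 1 library was left out, values that changed sign ranged at 19 against 3 months from -0.13 to 0.12 (Sgms2), -0.041 to 0.23 (Sptlc2) and -0.11 to 0.0015 (Ugcg). At 24 against 3 months they ranged from -0.22 to 0.088 (Sgms2) and -0.18 to 0.22 (Sptlc3). At 24 against 19 months they ranged from -0.019 to 0.31 (Fa2h), -0.18 to 0.069 (Sgms2), -0.056 to 0.11 (Sptlc1), -0.10 to 0.17 (Sptlc2) and -0.0021 to 0.40 (Sptlc3). The causes were not tested. At a mean of at least 5 FPKM, Fa2h, Degs2 and Ugcg were not fitted.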
